A study of Mus musculus with 6 samples.

Results

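Keratins and epithelial adhesion genes were followed in embryonic mammary buds of Eda-/- mice that had been exposed to recombinant Eda protein. The 10 genes are Krt1, Krt5, Krt8, Krt10, Krt14, Krt15, Krt17, Krt18, Epcam and Cdh1. They were chosen by name, each through its Ensembl mouse gene identifier, and all 10 of 10 had a value among the 25949 probe sets of the table. The reference table used here pairs 0 of these identifiers with a symbol, so that the 10 symbols come with the list of genes and no other probe set is given a gene name.

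Microdissected E13.5 mammary buds, from which most of the mesenchyme had been removed by hand, were incubated for 4 h either without addition (control, n = 3 arrays) or with Fc-Eda-A1 protein (Fc-Eda, n = 3 arrays). All 6 samples carried the Eda-/- genotype on a B6CBA background and therefore lacked the endogenous ligand. Each sample was a pool, which the labels put at about 20 buds taken from 5 to 6 embryos. The study's methods give somewhat lower numbers of both. Since buds of the same embryos were divided between both conditions, equal replicate numbers mark 3 pairs. Each array was an Affymetrix Mouse Exon 1.0 ST array of bulk RNA, in which fewer cells of a type and less RNA per cell cannot be told apart.

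Keratins are the intermediate filament proteins of epithelial cells. They are built from obligate pairs of a type I and a type II chain, and the pairs in use change with the kind of epithelium. Krt5 and Krt14 form the pair of basal epidermal cells, Krt8 and Krt18 that of simple epithelia and of the periderm, and Krt1 and Krt10 that of epidermal cells that have left the basal layer. Cdh1, or E-cadherin, is the calcium-dependent adhesion molecule of epithelial adherens junctions, and Epcam is a surface glycoprotein of many epithelia. Embryonic mammary buds arise from the surface ectoderm, and their cells hold basal as well as simple keratins before the basal and luminal lineages are separated.

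Eda acts through NF-κB, and the promoters of members on either side of 0 are shown to set the sequence beside the values. RefSeq windows (GRCm38.p6) were found for 6 of the 10 genes, and those of Krt5, Krt8, Krt18 and Epcam end at the 5′ end of the annotated gene. The 250 bases upstream of the start are given for Krt5, which was higher after Fc-Eda in every pair, and for Krt8 and Krt18, which were lower in every pair. They lie at chr15:101712906-101713155 (minus strand), chr15:102004343-102004592 (minus strand) and chr15:102027966-102028215 (plus strand). Capitals mark matches, on either strand, to the loose NF-κB pattern GGGNNNNNCC.
Krt5: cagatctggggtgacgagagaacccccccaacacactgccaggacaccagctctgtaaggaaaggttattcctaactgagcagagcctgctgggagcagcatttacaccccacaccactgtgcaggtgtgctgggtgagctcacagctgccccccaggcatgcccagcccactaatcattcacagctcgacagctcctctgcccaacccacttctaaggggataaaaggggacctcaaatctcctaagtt
Krt8: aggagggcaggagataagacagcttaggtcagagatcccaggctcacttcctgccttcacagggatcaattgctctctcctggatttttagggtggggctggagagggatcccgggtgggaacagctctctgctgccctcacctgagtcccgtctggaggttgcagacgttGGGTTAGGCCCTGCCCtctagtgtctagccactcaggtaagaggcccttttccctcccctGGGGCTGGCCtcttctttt
Krt18: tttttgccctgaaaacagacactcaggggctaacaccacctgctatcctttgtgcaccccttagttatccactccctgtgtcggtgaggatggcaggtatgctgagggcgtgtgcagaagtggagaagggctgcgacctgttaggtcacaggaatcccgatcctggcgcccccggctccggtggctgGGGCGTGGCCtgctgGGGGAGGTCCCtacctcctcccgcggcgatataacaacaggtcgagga
The pattern had no match in the windows of Krt5 and Epcam, 4 matches in that of Krt8, of which 3 overlap, and 3 in that of Krt18, of which 2 overlap. It was present in 45.8% of all 32851 windows of the same length. The stricter NF-κB consensus, present in 3.9% of all windows, had no match in the windows of Krt5, Krt8, Krt18 and Epcam. The windows of Krt14 and Krt10 start 1480 and 8085 bases inside the annotated gene and are not printed. That of Krt14 held 2 overlapping loose matches and 1 match to the consensus, and that of Krt10 held none. Krt14 was higher in every pair as deposited, but not after quantile normalization or cyclic loess. A match describes letters only, and binding was not measured.

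On the deposited log2 scale, control 1 had a median of 4.99, and the medians of the other 5 arrays lay at 4.80 to 4.83. It also had the narrowest middle range, with an interquartile range of 2.59 against 2.81 to 2.96. Counts of members by test, direction or overlap are therefore given also without its pair.

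The labelled tissue was set against the place of these epithelial genes among all probe sets. Krt14 and Krt5 had a higher mean than 99.8% of the probe sets, Krt8 than 99.5%, Krt17 than 99.4%, Cdh1 than 98.8% and Epcam than 96.8%. For Krt18 the share was 93.4%, for Krt15 88.1%, for Krt10 85.7% and for Krt1 72.9%. Probes differ in efficiency, so these places do not rank the abundance of the transcripts. Markers of mesenchyme and of other cell types were not analysed here, since the reference table used pairs no identifier with a symbol.

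Between control and Fc-Eda, differences of the members were small. When treatment was tested by limma within the 3 pairs, 0 of the 10 members passed a q-value of 0.05 (Storey), where the share of all probe sets called was 0% higher and 0% lower. The q-values of the members ranged from 0.645 to 0.795. At an unadjusted p under 0.05 the same fit placed 0 members higher (2.73% of all probe sets) and 2 lower, namely Krt15 and Krt8 (3.33% of all probe sets). With each array centred on its median neither passed (limma, unadjusted p = 0.057 and 0.076), and 0 members were lower, against 2.15% of all probe sets. After quantile normalization or cyclic loess 5 were lower, Krt8, Krt10, Krt15, Krt18 and Epcam, against 3.47% and 3.45% of all probe sets, and with array weights 4 were, the same without Epcam, against 4.61%. None was higher under these 4 settings, against 3.78% (median centring), 3.92% (quantile normalization), 4.07% (cyclic loess) and 4.37% (array weights) of all probe sets. By the same rule 3 were lower without replicate 1, namely Krt1, Krt10 and Krt15 (3.13% of all probe sets), 1 without replicate 2, namely Krt15 (3.57%), and 0 without replicate 3 (4.42%). In these fits 0 members were higher, against 4.28%, 1.896% and 1.796% of all probe sets. A fit without 1 pair has 1 residual degree of freedom per probe set, so its p-values rest largely on the variance of all probe sets. The difference, always given as Fc-Eda minus control, lay between -0.35 for Krt15 and 0.18 for Krt17, and 7 of the 10 were below 0, as were 57.8% of all probe sets. The median difference was -0.15 over the members and -0.02 over all probe sets.

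**Figure D1:**
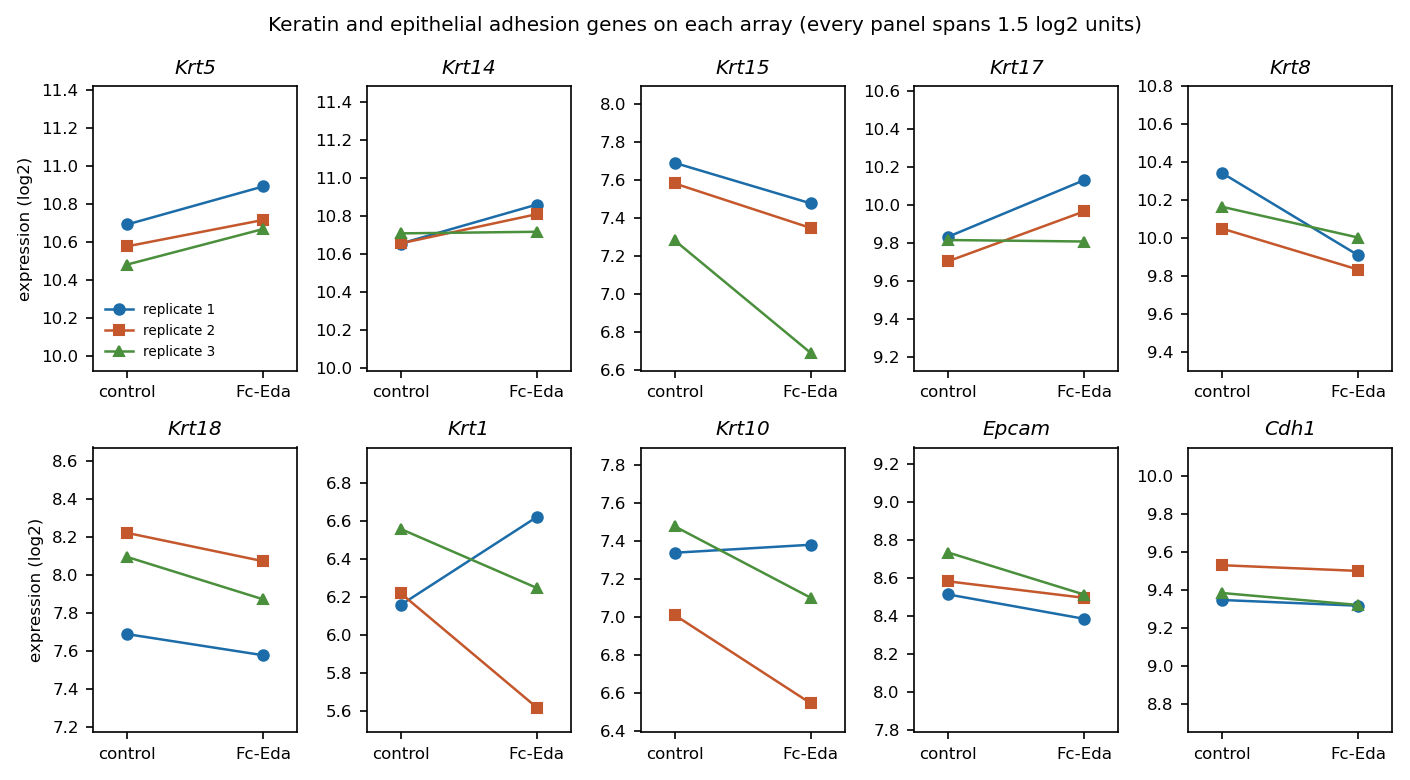
Expression (log2) of the 10 genes on each of the 6 arrays, with control and Fc-Eda on the horizontal axis and a line joining the 2 arrays of a replicate number; no error bars are drawn. Krt5 and Krt14 went up and Krt8, Krt15, Krt18, Epcam and Cdh1 went down along all 3 lines.

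The basal keratins did not move together. Krt5 (ENSMUSG00000061527_at), the type II keratin of basal cells, measured 10.69, 10.58 and 10.48 in controls 1 to 3 and 10.89, 10.71 and 10.67 in the Fc-Eda samples of the same numbers. It was higher after Fc-Eda in every pair, by 0.20, 0.14 and 0.19, although the groups overlap. The mean difference was 0.18 with a standard error of 0.079 (limma, q = 0.74), which is a 1.13-fold level with a 95% interval of 0.982 to 1.30. Krt5 had the most even pair differences of the keratins, with a standard deviation of 0.032.

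Krt14 (ENSMUSG00000045545_at), the type I partner of Krt5, measured 10.65, 10.66 and 10.71 in the controls and 10.86, 10.81 and 10.72 after Fc-Eda. Each Fc-Eda sample lay above each control, but by only 0.0085 in pair 3. The mean difference of 0.12 had a standard error of 0.087 (limma, q = 0.75). After quantile normalization it was 0.041, and Krt14 was then no longer higher in every pair. The controls themselves spanned 0.053, the narrowest range among the members.

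Krt17 (ENSMUSG00000035557_at), a type I keratin of ectodermal appendages and of injured epidermis, measured 9.83, 9.70 and 9.81 in the controls and 10.13, 9.97 and 9.81 after Fc-Eda. It was higher in pairs 1 and 2, by 0.30 and 0.26, while the arrays of pair 3 differed by -0.0078. The mean difference was 0.18 with a standard error of 0.099 (limma, q = 0.75).

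Krt15 (ENSMUSG00000054146_at), a type I keratin of basal cells that is also found in the stem cells of the hair follicle bulge, went the other way. It measured 7.69, 7.58 and 7.28 in the controls and 7.48, 7.35 and 6.69 after Fc-Eda. Krt15 was lower in every pair, by 0.21, 0.23 and 0.59 in size, and the groups overlap because control 3 lay below Fc-Eda 1 and Fc-Eda 2. The mean difference of -0.35 was the largest among the members, a 0.787-fold level with a 95% interval of 0.649 to 0.954. Its standard error was 0.11 (limma, unadjusted p = 0.024, q = 0.64). Without replicate 3 the difference was -0.22 (limma, q = 0.89), and it was -0.41 without replicate 1.

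Krt8 (ENSMUSG00000049382_at), the type II keratin of simple epithelia, measured 10.34, 10.05 and 10.16 in the controls and 9.91, 9.83 and 10.003 after Fc-Eda. Each Fc-Eda sample lay below each control, and the pairs differed by -0.43, -0.22 and -0.16. The mean difference was -0.27 with a standard error of 0.094, or a 0.829-fold level with a 95% interval of 0.703 to 0.978 (limma, unadjusted p = 0.033, q = 0.67). The largest of the 3 was that of pair 1, which holds control 1, and without this pair the difference was -0.19 (limma, unadjusted p = 0.066). It was -0.30 without pair 2 (limma, unadjusted p = 0.098) and -0.32 without pair 3 (limma, unadjusted p = 0.066).

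Krt18 (ENSMUSG00000023043_at), the type I partner of Krt8, measured 7.69, 8.22 and 8.10 in the controls and 7.58, 8.07 and 7.87 after Fc-Eda. It was lower in every pair, with differences of -0.11, -0.15 and -0.22. The mean difference of -0.16 had a standard error of 0.081 (limma, q = 0.75). The means of the 3 pairs spanned 0.51, and both arrays of replicate 1 were the lowest of their group. In 7 of the 10 members, Krt1, Krt5, Krt10, Krt15, Krt18, Epcam and Cdh1, the pair means spanned more than the size of the mean difference. This was counted for the members only, so no share of all probe sets stands beside it.

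Set beside each other, both simple keratins were lower and the pair of Krt5 and Krt14 was higher in each replicate pair. The mean difference of Krt5 and Krt14 was 0.20, 0.15 and 0.10 in pairs 1 to 3, and that of Krt8 and Krt18 was -0.27, -0.18 and -0.19. Within an array the change of Krt5 and Krt14 thus exceeded that of Krt8 and Krt18 by 0.47, 0.33 and 0.29, a mean of 0.36 ± 0.10 (SD, n = 3 pairs). Krt15 and Krt17, which basal cells also hold, are not in this contrast, and Krt15 was lower in every pair while Krt17 was not higher in pair 3. With Krt15 and Krt17 averaged in with Krt5 and Krt14, the excess was 0.39, 0.26 and 0.091. Centring an array adds the same value to all genes on it and cannot move such a contrast, and after cyclic loess that of Krt5 and Krt14 was 0.52, 0.32 and 0.29. Both contrasts were set up after the values were seen, and they are given with no test.

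**Figure D2:**
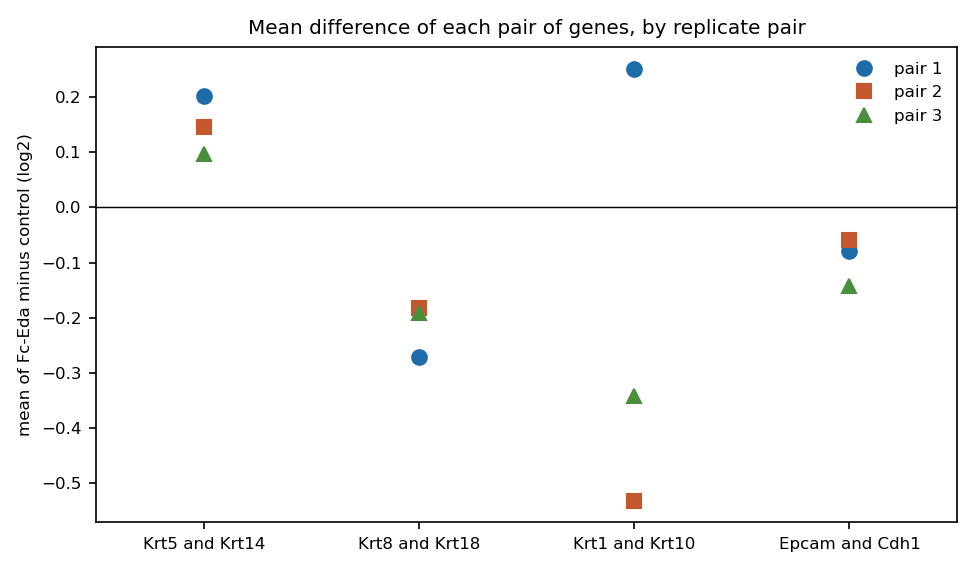
Mean of the Fc-Eda minus control differences (log2) of 2 genes, for 3 keratin pairs and for the 2 adhesion genes, with 1 point per replicate pair and no error bars. Krt5 and Krt14 lie between 0.10 and 0.20, Krt8 and Krt18 between -0.27 and -0.18, and Krt1 and Krt10 scatter from -0.53 to 0.25.

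The suprabasal keratins varied most between pairs. Krt1 (ENSMUSG00000046834_at), a type II keratin of differentiating epidermis, measured 6.16, 6.22 and 6.56 in the controls and 6.62, 5.62 and 6.25 after Fc-Eda. It was higher by 0.46 in pair 1 and differed by -0.60 and -0.31 in pairs 2 and 3, so that no direction was shared. The mean difference was -0.15 with a standard error of 0.21 and a 95% interval from -0.69 to 0.39 (limma, q = 0.78).

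Krt10 (ENSMUSG00000019761_at), the type I partner of Krt1, measured 7.34, 7.01 and 7.48 in the controls and 7.38, 6.54 and 7.10 after Fc-Eda. Like Krt1 it was lower in pairs 2 and 3, with differences of -0.46 and -0.38, and not in pair 1, with 0.042. Both genes had their lowest value on the Fc-Eda array of replicate 2. The mean difference of Krt10 was -0.27 with a standard error of 0.12 (limma, q = 0.74). Without pair 1, which holds control 1, the difference was -0.42 for Krt10 (limma, unadjusted p = 0.0067, q = 0.48) and -0.46 for Krt1 (limma, unadjusted p = 0.016, q = 0.51). For Krt10 it was -0.17 without pair 2 (limma, unadjusted p = 0.35) and -0.21 without pair 3 (limma, unadjusted p = 0.25), and for Krt1 it was 0.076 without pair 2 and -0.069 without pair 3.

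Of the adhesion genes, Epcam (ENSMUSG00000045394_at) measured 8.51, 8.58 and 8.73 in the controls and 8.38, 8.49 and 8.51 after Fc-Eda. It was lower in every pair, and its groups did not overlap by the narrow margin between 8.5109 for the lowest control and 8.5101 for the highest Fc-Eda sample. The mean difference was -0.15 with a standard error of 0.082 (limma, q = 0.75), and the pairs gave -0.13, -0.09 and -0.22.

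Cdh1 (ENSMUSG00000000303_at) had the smallest mean difference of the 10 members. It measured 9.35, 9.53 and 9.38 in the controls and 9.32, 9.50 and 9.32 after Fc-Eda, with pair differences of -0.030, -0.030 and -0.063. The mean difference was -0.04 with a standard error of 0.079, and its 95% interval ran from a 0.846-fold to a 1.12-fold level (limma, q = 0.80). Replicate 2 was the highest array of both groups.

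Pair 1 was also left out for the other members. Without it the difference was 0.16 in Krt5, 0.08 in Krt14, 0.13 in Krt17, -0.19 in Krt18, -0.15 in Epcam and -0.05 in Cdh1, each of the same sign as over the 3 pairs.

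**Figure D3:**
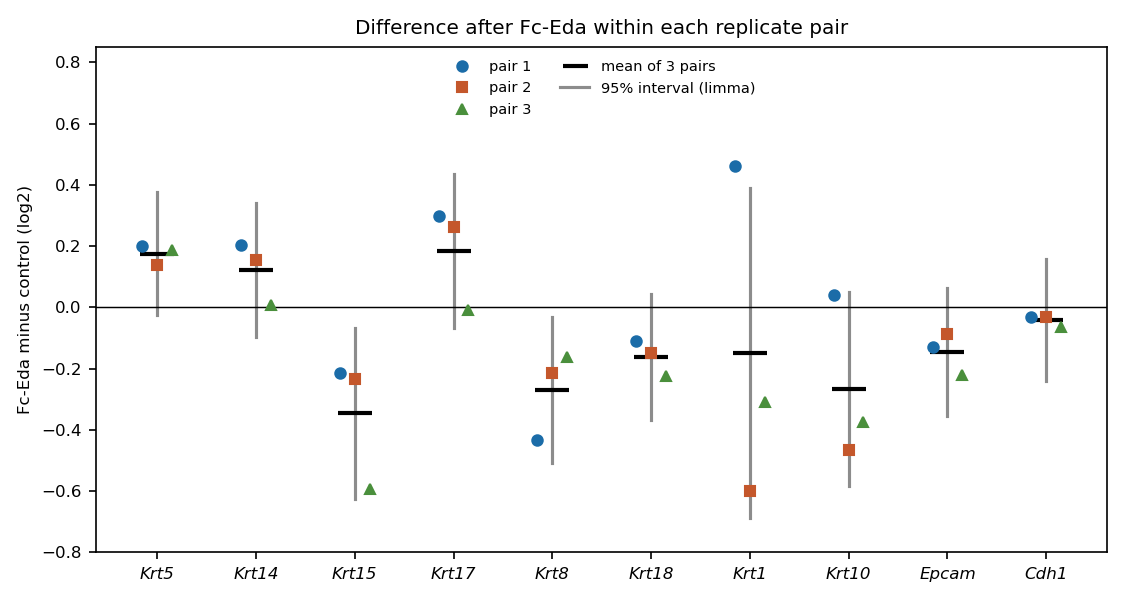
Fc-Eda minus control (log2) for each gene, with 1 coloured point per replicate pair, a black bar at the mean of the 3 pairs and a grey line for the 95% interval of the limma fit. The intervals of Krt15 and Krt8 lie below 0, those of the other 8 genes include 0, and none of the 10 genes passed the q-value threshold.

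Counted by direction alone, 2 members, Krt5 and Krt14, were higher in all 3 pairs, where 13.2% of all probe sets were. A further 5, Krt8, Krt15, Krt18, Epcam and Cdh1, were lower in all 3 pairs, where 15.3% of all probe sets were. In the brightest 10% of the probe sets, which held 7 of the 10 members, these shares were 29.0% higher and 8.94% lower, and 2 and 4 of the 7 members were. With pairs 2 and 3 alone the shares in this decile were 33.2% higher and 28.4% lower, again with 2 and 4 of the 7 members. In pairs 2 and 3 alone, Krt5 and Krt14 were higher (28.4% of all probe sets) and 7 members, with Krt1 and Krt10 besides the 5 above, were lower (26% of all probe sets). These counts depended on the scaling, since with each array centred on its median only Krt8 and Krt15 were lower in every pair, and with quantile normalization or cyclic loess Krt10 joined the 5 lower genes and only Krt5 remained among the higher ones. The share of all probe sets lower in every pair was 9.54% after median centring, 14.7% after quantile normalization and 14.5% after cyclic loess, and the share higher was 17.0%, 14.7% and 15.1%. Groups did not overlap in 1 member that was higher, Krt14 (3.98% of all probe sets), and in 2 that were lower, Krt8 and Epcam (5.11% of all probe sets). In the brightest 10% the shares were 7.67% and 2.35%. Without replicate 1 the groups did not overlap in 2 that were higher, Krt5 and Krt14 (14.9% of all probe sets), and in 3 that were lower, Krt8, Krt18 and Epcam (13.3% of all probe sets). The shares in the brightest 10% were then 15.4% and 12.9%, with 2 and 3 of the 7 members.

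IBMT, a moderated test whose expected variance follows the expression level, called none of the members at a q-value of 0.05, the smallest being q = 0.26 for Krt8. At an unadjusted p under 0.05 it placed 2 members higher, Krt5 and Krt17, against 4.1% of all probe sets. It placed 5 lower, Krt8, Krt10, Krt15, Krt18 and Epcam, against 3.24% of all probe sets. Of the 7 members in the brightest 10%, 2 were higher and 3 lower by this rule, where 10.4% and 3.04% of the 2595 probe sets of that decile were. Without replicate 1, a fit added after the values were seen, IBMT placed Krt5 higher (4.86% of all probe sets) and 6 members lower, with Krt1 besides the 5 above (3.74% of all probe sets). In the brightest 10% it then placed 1 of the 7 members higher and 3 lower, against 8.40% and 6.20% of that decile. The members share arrays and in part a gene family, so that their counts are not independent of each other.

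Control 1 did not shift the members in a single direction. Against the mean of controls 2 and 3, it was lower in 5 members and higher in 5, with differences from -0.47 for Krt18 to 0.26 for Krt15. It was the lowest control in 5 members and the highest in 4, where 28.8% and 51.0% of all probe sets were. The median difference over all probe sets was 0.08, but it followed the level, with 0.26 in the decile of probe sets around a mean level of 4.05 and -0.10 in the brightest decile. With each array centred on its median, control 1 lay above the mean of the others only in Krt8 and Krt15. This comparison of 1 array with 2 was not tested.

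Krt18 stood furthest below, by 0.53 under control 2 and 0.41 under control 3, where these 2 controls lay 0.13 apart. Of the 500 probe sets nearest to Krt18 in level, 2.8% had a lower value of this difference. The Fc-Eda array of the same replicate was low in Krt18 as well, at 7.58, so that the low value is shared by both arrays of the pair.

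Krt15, Krt8 and Krt5 stood above the other controls on this array, by 0.26, 0.23 and 0.16. Among the 500 probe sets nearest in level, 96.6%, 97.2% and 94% respectively had a lower value. With each array centred on its median these differences were 0.091, 0.068 and -0.0038, and control 1 was then the middle control for Krt15 and Krt5, while the shares of probe sets of like level cannot change under a shift of whole arrays. After quantile normalization they were 0.36, 0.28 and 0.19, and after cyclic loess 0.36, 0.32 and 0.24, with control 1 the highest control for all 3 genes. For Krt8 the partner array did not follow, since Fc-Eda 1, at 9.91, lay between Fc-Eda 2 and Fc-Eda 3. For Krt5 and Krt15, Fc-Eda 1 was the highest array of its group too.

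The remaining members were closer to the shift of bright probe sets. Control 1 differed from the other controls by -0.03 in Krt14, 0.07 in Krt17, -0.14 in Epcam and -0.11 in Cdh1. In Krt10 it lay between the other 2, which were 0.47 apart, and in Krt1 it was 0.06 below control 2 and 0.40 below control 3. The part of the array's overall shift in these values was not tested.

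**Figure D4:**
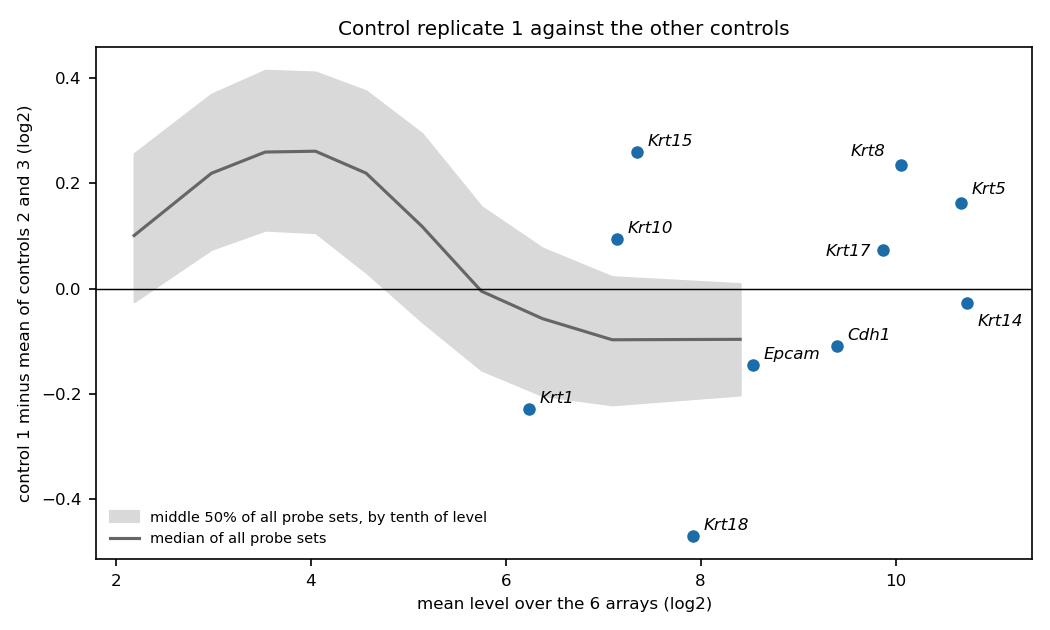
Control 1 minus the mean of controls 2 and 3 (log2, vertical) against the mean level over the 6 arrays (log2, horizontal), with the 10 genes as points and, for all probe sets in deciles of level, the median as a line and the middle 50% as a band. Krt18 lies at -0.47, Krt15, Krt8 and Krt5 lie between 0.16 and 0.26, and the line is at 0.10 in the dimmest decile, highest at 0.26 around a level of 4.05 and at -0.10 in the brightest decile.

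Averaged over the 10 genes, each taken relative to its own mean, the arrays spanned only 0.18, from -0.10 on Fc-Eda 2 and Fc-Eda 3 to 0.08 on control 3, while Fc-Eda 1 was at 0.06. The probe sets outside the list with the most similar profile over the 6 arrays were ENSMUSG00000025855_at (Pearson r = 0.993) and ENSMUSG00000053070_at (r = 0.992). They spanned 0.063 and 0.17 over the arrays, are 2 of 25939 candidates, and are given as a description.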

How the data were processed

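The authors deposited 1 log2 value per array and Ensembl gene identifier, and the submitters' processing notes name RMA. Its version and the probe set definition are not given in the sources used here, and background levels were not analysed here. Each of the 25949 probe sets entered 1 model in limma (version 3.58.1, R 4.3.3) that held the treatment and, as a block, the replicate number. Storey's q-values were computed over all probe sets, with 0.05 as the threshold. The study's methods pair treatment and control, and buds of the same embryos were divided between conditions. The deviations of paired arrays from their group means correlated with r = 0.079, 0.29 and 0.29. IBMT and a Cyber-T type test were written out from their formulas. The tests were run on simulated data with added changes larger than any difference of the members. Such a run does not show whether changes of the members' size would be called.

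The genes, the tests and the 14 alternatives were chosen with earlier results of these data known. All 10 genes are reported. The number of arrays limits the precision. Lists of other epithelial genes and of cell type markers were not used, since the reference table used pairs no identifier with a symbol. Keratins are a multigene family with related sequences, and how probes were assigned among them is not given.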

Additional observations from a re-analysis of the deposited data

How the results depend on the processing

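None of the 10 genes passed a q-value of 0.05 in limma or under any of the 14 alternatives, and the smallest q was 0.147, for Krt8 in the Cyber-T type test. The difference kept its direction under all alternatives in Krt5, Krt8, Krt10, Krt14, Krt15, Krt17, Krt18 and Epcam. It reversed in Krt1, to 0.076 without replicate 2 (its range with 1 pair left out was -0.46 to 0.076), and in Cdh1, to 0.016 with each array centred on its median. Krt15 ranged from -0.41 to -0.22, Krt10 from -0.42 to -0.17, Krt8 from -0.32 to -0.19, Krt18 from -0.22 to -0.10, Epcam from -0.19 to -0.089, Krt5 from 0.15 to 0.23, Krt17 from 0.13 to 0.28 and Krt14 from 0.041, under quantile normalization, to 0.18.

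Over all probe sets, limma called 0 higher and 0 lower, with 708 and 864 at an unadjusted p under 0.05. The fit with no replicate block called 3 and 0, limma with trend 90 and 6, IBMT 88 and 6, a restriction to probe sets above the median level 85 and 6, the Cyber-T type test 162 and 31, median centring 56 and 1, and array weights 11 and 0. Leaving out 1 pair at a time gave 0 to 10 higher and 0 to 1 lower. The block changed no call by q among the 10 genes, while the unadjusted p of Krt15 in limma was 0.024 with it and 0.15 without it. The number of members higher in every pair was 2 as deposited and 1 after quantile normalization or cyclic loess, and the number lower in every pair went from 5 (15.3% of all probe sets) to 2 (9.54%) after median centring and to 6 after quantile normalization (14.7%) or cyclic loess (14.5%).

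Control 1 minus the other controls moved with median centring to -0.0038 in Krt5, 0.068 in Krt8, -0.19 in Krt14, -0.094 in Krt17, -0.31 in Epcam and -0.28 in Cdh1. Krt15 went from 0.26 to 0.091 and Krt10 from 0.094 to -0.072, less than 1 SD of the controls. After quantile normalization and cyclic loess they were 0.36 and 0.36 in Krt15 and 0.19 and 0.19 in Krt10, again within 1 SD. After cyclic loess the difference was 0.046 in Krt14, 0.17 in Krt17, -0.0091 in Cdh1 and -0.035 in Epcam. After quantile normalization it was 0.14 in Krt17, -0.083 in Epcam and -0.039 in Cdh1. In Krt1 it went from -0.23 to -0.40 with median centring, within 1 SD of the controls. For Krt18 it stayed below 0 in every setting. Centring lowers all values of that array alike. The causes of the other changes were not tested. Tests of the gene lists were not run.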
